A study of Mus musculus with 33 samples.

Results

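The comparison asked whether stereotactic body radiotherapy (SBRT), which delivers a few large and precisely aimed X-ray fractions, changed gene expression differently in inflammatory monocytes (IM) and in tumour-associated macrophages (TAM) of the same tumour model. For each gene, the log2 fold change of SBRT over unirradiated in TAM was subtracted from that in IM. The result is called the response difference here. It was read over the 13124 of 53735 genes whose mean normalised level was at least 50 in both populations. The level is a mean over all libraries of a population, irradiated ones included, and the choice used no fold change. A positive response difference means a more positive effect in IM, and a negative one a more positive effect in TAM.

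C57BL/6 mice carried 100000 KCKO pancreatic ductal adenocarcinoma cells, injected into the tail of the pancreas together with titanium fiducial markers. The groups were IM after SBRT (3 libraries), IM without irradiation (3), TAM after SBRT (2) and TAM without irradiation (2), which makes 10 of the 33 libraries in the series. Irradiated tumours received 6 Gy in each of 4 fractions, between day 6 and day 9 after implantation. IM were sorted as CD45+CD11b+Ly6C+Ly6G- cells and TAM as CD45+CD11b+Ly6CmodLy6G-F480+ cells. Other groups received microspheres holding 0.5 µg of interleukin 12 (IL-12), injected into the tumour on day 10, alone or after SBRT. The labels mention empty microspheres but not which of these groups received them. They give neither the day of harvest nor whether libraries came from separate mice, so the p-values reflect library-to-library spread, which may be technical.

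Ionising radiation breaks DNA, and the break stabilises the transcription factor p53. p53 then switches on genes that halt the cell cycle, repair DNA or start apoptosis, while genes of DNA replication and mitosis are shut down through the RB, E2F and DREAM proteins. Irradiated tumours can also raise interferons, whose target genes serve antigen presentation and defence against microbes. Inflammatory monocytes are short-lived cells that enter tumours from the blood, and many tumour macrophages descend from them.

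The promoter letters of genes from both sides of the comparison are shown first. RefSeq sequences (GRCm38.p6), of which the 250 bases before each gene start were searched on both strands, were matched by symbol for 8140 members. Of the 12 p53 target genes with a called negative response difference, 10 had a sequence, and 6 of those held the p53 decamer, the unit bound by a p53 dimer. All 6 are shown, 5′ to 3′ on the gene's strand, with the decamer in capitals.
Ccng1: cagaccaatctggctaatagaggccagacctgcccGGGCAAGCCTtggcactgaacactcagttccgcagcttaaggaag
Bax: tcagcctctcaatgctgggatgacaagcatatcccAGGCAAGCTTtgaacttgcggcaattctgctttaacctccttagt
Aen: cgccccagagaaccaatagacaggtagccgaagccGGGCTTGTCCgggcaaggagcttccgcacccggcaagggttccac
Exoc4: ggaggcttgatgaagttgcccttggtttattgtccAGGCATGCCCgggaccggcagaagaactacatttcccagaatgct
Cdkn1a: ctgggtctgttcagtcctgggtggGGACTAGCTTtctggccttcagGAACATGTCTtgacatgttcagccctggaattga
Polk: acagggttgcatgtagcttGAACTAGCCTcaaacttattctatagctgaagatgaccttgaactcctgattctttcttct
These stretches lie at chr11:40755427-40755506 (minus strand, Ccng1), chr7:45467055-45467134 (minus, Bax), chr7:78895902-78895981 (plus, Aen), chr6:33248890-33248969 (plus, Exoc4), chr17:29090882-29090961 (plus, Cdkn1a) and chr13:96519358-96519437 (minus, Polk). The p53 decamer stood in 7.13% of all 32851 promoter sequences and in 7.16% of the members with one. It stood in 11 of the 27 p53 target members with a sequence. The windows of Phlda3 and Bbc3 held no p53 decamer.

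On the other side, 4 of the 19 genes with a called positive response difference and a sequence held an E2F site (TTTCCCGC, TTTCGCGC, TTTGCCGC or TTTGGCGC). They encode proteins of DNA replication and its control, and the E2F letters are in capitals, overlapping matches joined.
Mcm5: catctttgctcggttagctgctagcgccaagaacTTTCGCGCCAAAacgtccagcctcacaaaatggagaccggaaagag
Mcm6: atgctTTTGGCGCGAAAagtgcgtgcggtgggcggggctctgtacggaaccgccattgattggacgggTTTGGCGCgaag
Dtl: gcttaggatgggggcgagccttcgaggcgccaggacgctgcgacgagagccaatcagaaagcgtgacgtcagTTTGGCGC
Uhrf1: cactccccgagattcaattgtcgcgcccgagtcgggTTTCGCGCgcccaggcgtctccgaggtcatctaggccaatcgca
Their positions are chr8:75109322-75109401 (plus strand, Mcm5), chr1:128359741-128359820 (minus, Mcm6), chr1:191575545-191575624 (minus, Dtl) and chr17:56304092-56304171 (plus, Uhrf1). The E2F site stood in 1.86% of all promoter sequences, in 4.10% of the members, in 9 of 31 replication genes and in 1 of 35 mitosis genes. The CCAAT box stood in 33.8% of all sequences, 40.6% of the members, 21 of the 31 replication genes and 25 of the 35 mitosis genes. It was as common on the negative side, in 18 of the 27 p53 target members with a sequence. The CHR element (TTTGAA) stood in 15.99% of all sequences, in 12.6% of the members and in 12 of the 35 mitosis genes. It also stood in 5 of the 31 replication genes, 6 of the 27 p53 targets and 6 of 23 interferon gamma response genes.

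Another set has no called response difference and is shown because its genes responded in IM, in TAM or in both. These are 3 of the 12 interferon gamma response genes, among 23 with a sequence, that held an interferon-stimulated response element (ISRE, here GAAA, any 2 bases and GAAA, in capitals).
Tgtp1: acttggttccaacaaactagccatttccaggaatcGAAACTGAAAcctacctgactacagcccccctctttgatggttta
Gbp2: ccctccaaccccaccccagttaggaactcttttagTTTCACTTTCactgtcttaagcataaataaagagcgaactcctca
Socs1: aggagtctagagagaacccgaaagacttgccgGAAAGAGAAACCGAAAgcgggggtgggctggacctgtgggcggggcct
They lie at chr11:48992279-48992358 (minus strand, Tgtp1), chr3:142620569-142620648 (plus, Gbp2) and chr16:10785572-10785651 (minus, Socs1). The ISRE stood in 2.98% of all promoter sequences and 3.64% of the members. The gamma-activated site (GAS, TTCNNNGAA) stood in 7.02% of all sequences and in 11 of those 23 genes. A match describes the letters in these windows and not a bound site.

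The response differed between the populations for 59 of the 13111 members with a p-value (0.45%, 2-sided normal test of the difference with Benjamini-Hochberg adjusted p below 0.05 over all 30093 genes tested). Of these, 34 had a lower effect in IM (0.259%) and 25 a higher one (0.191%). Without adjustment, 1045 members had a p below 0.05. Over all members the median response difference was -0.00058, and its median standard error (SE) was 0.26. Called genes had differences of at least 0.91 in size, apart from the pseudogene Olfr650-ps1 at -0.03, whose deposited fold change and statistic differ in scale.

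Most called differences were genes that changed in TAM. The authors' deposited tables called 304 members in TAM (2.32%), of which 139 rose (1.06%) and 165 fell (1.26%). They called 85 members in IM (0.648%), of which 68 rose (0.518%) and 17 fell (0.13%). Of the 34 genes with a lower effect in IM, 32 rose in TAM and 3 fell in IM, by the authors' deposited tables. Of the 25 with a higher effect in IM, 19 fell in TAM, 4 rose in IM and 2 were called in neither of the authors' deposited tables. Among the TAM calls that were not IM calls, 236 of 286 had no called response difference, and among the IM calls that were not TAM calls, 61 of 67 had none.

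**Figure D1:**
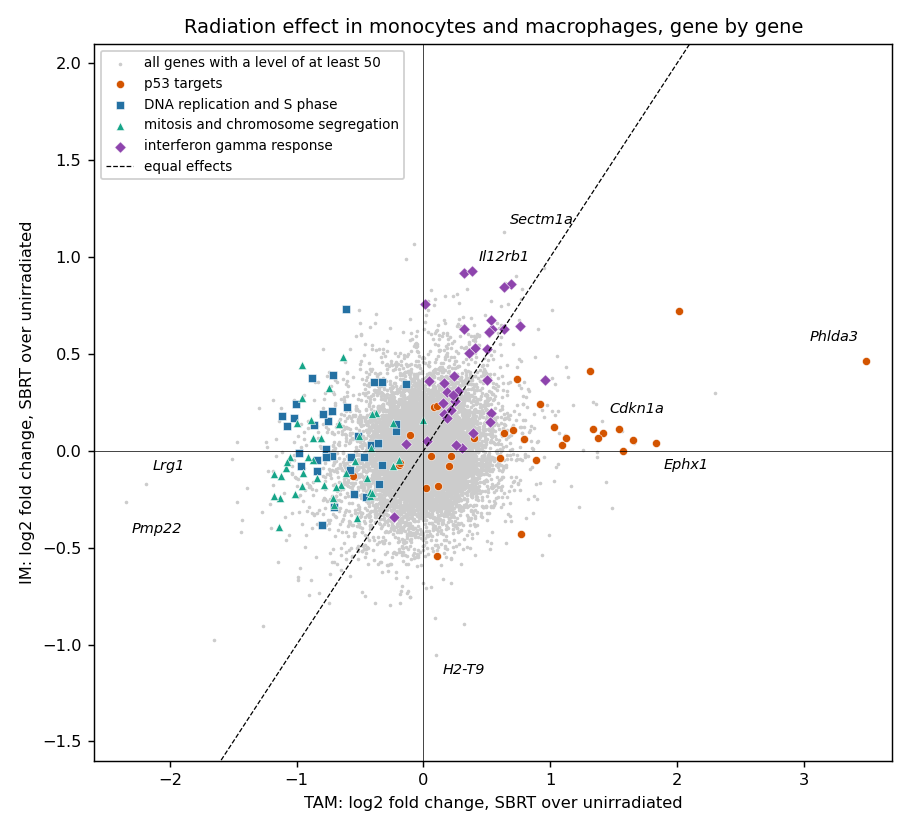
Each point is 1 of the 13124 genes, placed by the deposited log2 fold change of SBRT over unirradiated in TAM (horizontal axis) and in IM (vertical axis), with members of 4 gene lists coloured and the dashed line marking equal effects. p53 targets run out to the right, up to 3.49 for Phlda3 in TAM, and replication and mitosis genes lie to the left, while interferon gamma response genes lie around the line of equal effects.

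The scatter of both effects shows 2 arms along the TAM axis. IM fold changes spread less, with an SD of 0.19 over the members against 0.28 in TAM. Their median SE was 0.16 in IM and 0.21 in TAM, where there were fewer libraries.

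p53 target genes were the clearest group on the negative side. Of 34 members, 12 had a called response difference, all lower in IM, beside the 0.259% of all members called in that direction. By the authors' deposited tables, 19 rose in TAM (1.06% of all members) and none fell, while in IM none passed the test in either direction. The median response difference was -0.66, with median effects of 0.06 in IM and 0.75 in TAM in the authors' deposited tables, and 6 of the 34 differences were positive.

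Phlda3, which encodes a p53-induced inhibitor of the kinase AKT and lies at chr1:135766119-135769136 (plus strand), had the most negative response difference. Its log2 fold change in the authors' deposited tables was 0.47 ± 0.22 (SE) in IM (adjusted p = 0.63) and 3.49 ± 0.19 in TAM (adjusted p = 6.2e-73). The response difference was -3.03 ± 0.29 (95% interval -3.60 to -2.46, adjusted p = 5.7e-21). Its mean level over all libraries was 185 in IM and 1784 in TAM, each normalised within its own population.

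Genes of cell cycle arrest and p53 regulation had smaller but called differences. Cdkn1a, which encodes the cyclin-dependent kinase inhibitor p21 (chr17:29090976-29100727, plus strand), changed by 0.09 ± 0.12 in IM and 1.41 ± 0.16 in TAM in the authors' deposited tables. Its response difference was -1.32 ± 0.20 (interval -1.71 to -0.93, adjusted p = 1.4e-07). An annotated transcript on the other strand overlaps its exons, and the library kit does not keep strand. Ccng1, encoding cyclin G1, had a response difference of -1.31 ± 0.24. Zmat3, a zinc finger RNA-binding protein induced by p53, had -1.60 ± 0.30 (adjusted p = 0.0002). Trp53inp1, which promotes p53 activity and autophagy, had -1.43 ± 0.32. In each of these genes the IM effect was between 0.06 and 0.11 in the authors' deposited tables.

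Mediators of apoptosis followed. Bbc3, encoding the BH3-only protein PUMA (chr7:16308393-16318205, plus strand), changed by 0.00 ± 0.14 in IM and 1.58 ± 0.18 in TAM in the authors' deposited tables, a response difference of -1.58 ± 0.23 (adjusted p = 5.9e-08). Bax, the pore-forming protein that PUMA helps to activate, had -0.91 ± 0.21 (adjusted p = 0.011), and Aen, a p53-induced nuclease, had -1.06 ± 0.25 (adjusted p = 0.011). Bax and Aen missed the threshold when both tables were given 1 shared standard error (adjusted p = 0.18 and 0.12). Fas, the death receptor, had -0.60 ± 0.24 and was not called (adjusted p = 0.61). Of the 24 apoptosis regulators, Bbc3 and Bax were the 2 called, and the median response difference of that list was -0.07.

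Other called targets were Ephx1, an epoxide hydrolase (-1.80 ± 0.32), Polk, a translesion DNA polymerase (-1.20 ± 0.29), Exoc4, an exocyst subunit (-1.22 ± 0.23), and Dcxr, a carbonyl reductase (-1.06 ± 0.24). Polk had effects of opposite sign in the authors' deposited tables, -0.43 ± 0.18 in IM (adjusted p = 0.46) and 0.77 ± 0.23 in TAM (adjusted p = 0.037).

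Not every target that rose in TAM passed the test of the difference. Mdm2, the ubiquitin ligase that degrades p53, changed by 0.06 ± 0.19 in IM and 0.80 ± 0.21 in TAM in the authors' deposited tables, and its response difference of -0.74 ± 0.28 (interval -1.29 to -0.18) had an adjusted p of 0.55. Psrc1, a spindle protein, had -1.30 ± 0.34 (adjusted p = 0.056). Mdm4, the partner of MDM2, had -0.85 ± 0.23 (adjusted p = 0.071), and none of the 11 p53 regulators was called. The 6 targets with positive differences, among them Sesn1, Tigar and Rrm2b, had values of up to 0.43, and none was called.

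**Figure D2:**
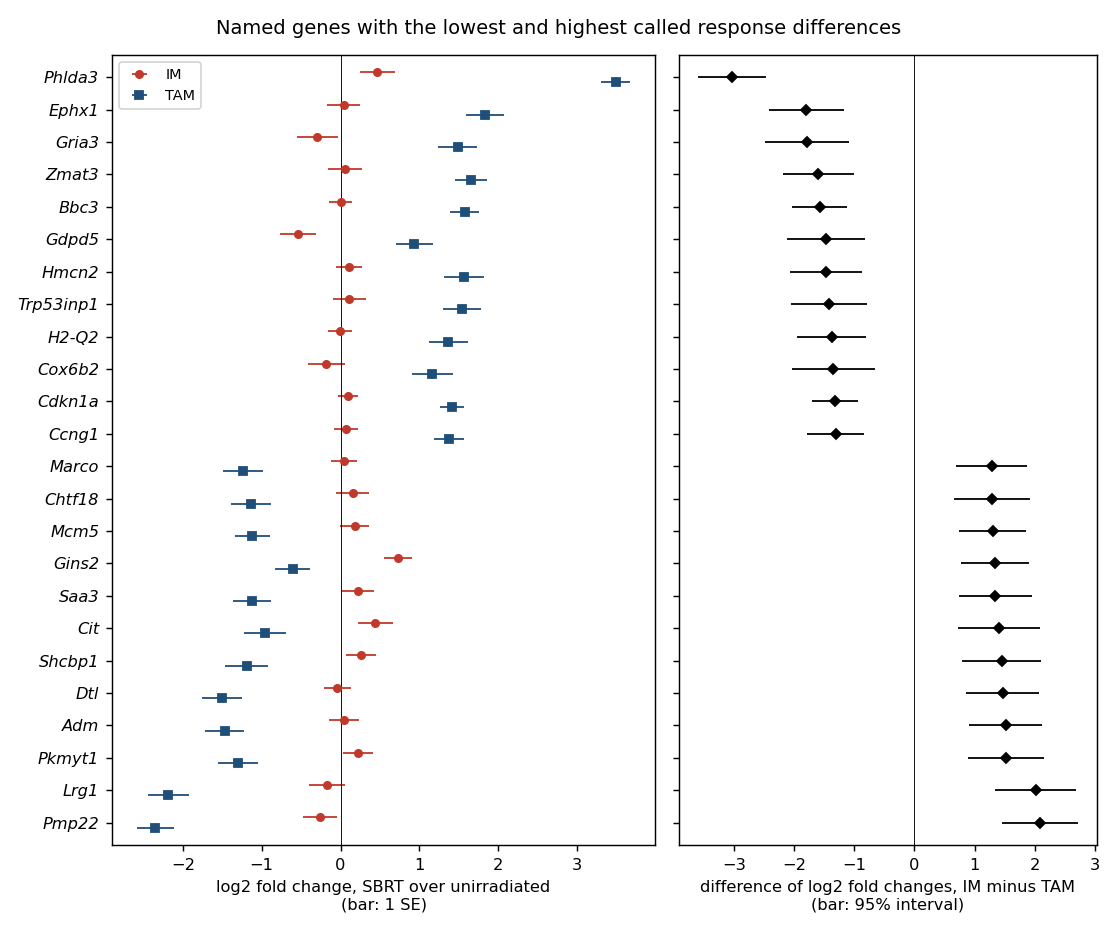
Left, deposited log2 fold changes of SBRT over unirradiated in IM (red circles) and TAM (blue squares) with bars of 1 SE; right, their difference (IM minus TAM) with its 95% interval. Among genes with a name other than a clone, predicted or pseudogene name, the 12 lowest and the 12 highest called differences are shown, from Phlda3 (-3.03) to Pmp22 (2.09), and in all of them but Gins2 the TAM point lies farther from 0 than the IM point.

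As the plot of the 24 leading genes shows, genes outside the p53 list also stood on the negative side. Gria3, a glutamate receptor subunit, had a response difference of -1.78 ± 0.36, and Gdpd5, a glycerophosphodiester phosphodiesterase, -1.47 ± 0.33. Hmcn2, encoding the matrix protein hemicentin 2, had -1.46 ± 0.31, H2-Q2, a class Ib histocompatibility gene, -1.38 ± 0.29, and Cox6b2, a cytochrome c oxidase subunit, -1.35 ± 0.35. Gria3 and Cox6b2 lay near the level minimum, with mean levels of 70.7 and 67.1 in TAM. Both rose in TAM after SBRT, by 1.49 and 1.17 in the authors' deposited table. That mean level includes irradiated libraries, so whether these genes reach the minimum in unirradiated TAM is not known. Hmcn2, H2-Q2 and Cox6b2 missed the threshold with the shared standard error (adjusted p = 0.055, 0.054 and 0.074). H2-Q2 has near-identical relatives among which reads can be split, so its value is uncertain. Of the 34 genes, 9 carry clone names, predicted names or a pseudogene name.

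Besides Olfr650-ps1, the genes of this side that fell in IM were H2-T9, another class Ib gene with close relatives, and RP23-108F2.19, a gene with a clone name, both named after their values were seen. H2-T9 fell in IM (-1.05 ± 0.21, adjusted p = 0.00063) and changed by 0.10 ± 0.13 in TAM, in the authors' deposited tables. RP23-108F2.19 fell in IM (-0.86 ± 0.16, adjusted p = 0.00012) and changed by 0.09 ± 0.10 in TAM, in the authors' deposited tables. In the authors' deposited IM tables the effects of H2-T9 were -1.01 after IL-12 and -1.01 after the combination of SBRT and IL-12, and those of RP23-108F2.19 were -0.85 and -0.85. These near-equal values come from tables that share the 3 unirradiated IM libraries.

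Genes of DNA replication and of mitosis formed the group on the positive side. All 37 replication and S phase members and all 43 mitosis and chromosome segregation members had a positive response difference, against 6551 of the 13124 members. The median differences were 0.73 and 0.75. In the authors' deposited tables the median effects of the replication list were 0.04 in IM and -0.71 in TAM, and those of the mitosis list were -0.08 in IM and -0.74 in TAM. In TAM 14 replication genes and 19 mitosis genes fell and none rose, by the authors' deposited table, beside 1.26% of all members that fell. In IM 1 replication gene rose, beside 0.518% of all members, and no mitosis gene was called. The response difference itself was called for 4 replication genes and 2 mitosis genes, all higher in IM, beside 0.191% of all members. The members of a list share libraries and vary together, so their number does not count as replicates.

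Mcm5 and Mcm6, subunits of the replicative helicase whose promoters are printed above, had response differences of 1.30 ± 0.29 (adjusted p = 0.0047) and 1.19 ± 0.29 (adjusted p = 0.023). Mcm6 missed the threshold with the shared standard error (adjusted p = 0.052). Mcm5 changed by 0.18 ± 0.19 in IM and -1.12 ± 0.22 in TAM in the authors' deposited tables. The helicase subunits Mcm2, Mcm3 and Mcm7 had differences of 0.78, 0.70 and 0.80, and neither these nor Mcm4 were called.

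Gins2, a subunit of the GINS complex that travels with the helicase, differed in its pattern. By the authors' deposited tables it rose in IM, by 0.73 ± 0.18 (adjusted p = 0.017), and its TAM effect of -0.61 ± 0.22 was not called (adjusted p = 0.17). Its response difference was 1.34 ± 0.29 (interval 0.77 to 1.91, adjusted p = 0.0031). Pold2, the accessory subunit of DNA polymerase delta, likewise rose in IM by the authors' deposited table (0.64 ± 0.15, adjusted p = 0.0078) and had a response difference of 1.06 ± 0.24. Gins2 shares exonic bases with the neighbouring Gse1 on the other strand.

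Dtl, the adaptor that directs p21 and CDT1 to degradation, had a response difference of 1.47 ± 0.31, and Pkmyt1, the kinase that holds CDK1 inactive, 1.52 ± 0.32. Pkmyt1 shares exonic bases with Paqr4 on the other strand. Uhrf1, which keeps up DNA methylation at the replication fork, had 1.25 ± 0.32 (adjusted p = 0.043), and Chtf18, a clamp loader subunit, 1.29 ± 0.32 (adjusted p = 0.03). Both missed the threshold with the shared standard error (adjusted p = 0.069 and 0.074).

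Among mitotic genes Cit, encoding citron kinase of cytokinesis, had 1.40 ± 0.35, Espl1, encoding separase, 1.12 ± 0.27, and Shcbp1, a spindle-associated protein, 1.45 ± 0.33. Espl1 was called in neither of the authors' deposited tables, where its effect was 0.48 ± 0.18 in IM and -0.63 ± 0.20 in TAM. Top2a, encoding topoisomerase II alpha, changed by -0.05 ± 0.21 in IM and -0.87 ± 0.24 in TAM in the authors' deposited tables, and its response difference of 0.82 ± 0.32 was not called (adjusted p = 0.60). Mki67, the Ki-67 proliferation antigen, had effects of 0.16 ± 0.22 in IM and -0.01 ± 0.26 in TAM in the authors' deposited tables, with a difference of 0.17 (interval -0.49 to 0.83). The 33 DNA repair members had a median difference of 0.19 with none called, and the 20 replication-dependent histone genes had 0.07 with none called.

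Some markers of cells outside both sort gates were lower in TAM as well. Among members, the median TAM effects in the authors' deposited tables were -0.34 for 12 T cell markers, -0.68 for 4 B and plasma cell markers, -0.61 for 6 epithelial and tumour cell markers and -0.51 for 7 fibroblast markers. The IM medians of these lists in the authors' deposited tables were 0.09, -0.04, -0.16 and -0.24. By the authors' deposited table, 1 of the B and plasma cell markers and 2 of the fibroblast markers fell in TAM, beside 1.26% of all members. No T cell or epithelial marker was called there, and no marker list had a called response difference. The 5 NK cell markers had medians of -0.32 in TAM and -0.16 in IM in the authors' deposited tables. For the 4 erythroid markers they were -0.06 in TAM and -0.03 in IM. The erythroid values had small SEs as well, such as 0.021 for Hbb-bs in TAM. By the authors' deposited Wald test, their unadjusted p-values in TAM ran from 0.0051 (Hbb-bs) to 0.036 (Hba-a1), and none was called. The size of these fold changes therefore does not show that the erythroid markers were unchanged. Positive TAM medians in the authors' deposited table were 0.10 for 6 neutrophil, 0.24 for 2 endothelial, 0.04 for 12 acinar and 0.04 for 2 mast cell markers. The summed mean levels were 2989 in IM and 2797 in TAM for T cells, and 5608 in IM and 4109 in TAM for B and plasma cells. They were 2450 in IM and 2418 in TAM for epithelial cells, and 1366 in IM and 3032 in TAM for fibroblasts. No marker of the T cell, B and plasma cell, epithelial and fibroblast lists was at 0 in either population. The part of such cells in the response differences was not tested, and fewer cells of a type cannot be told apart from less RNA per cell.

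**Figure D3:**
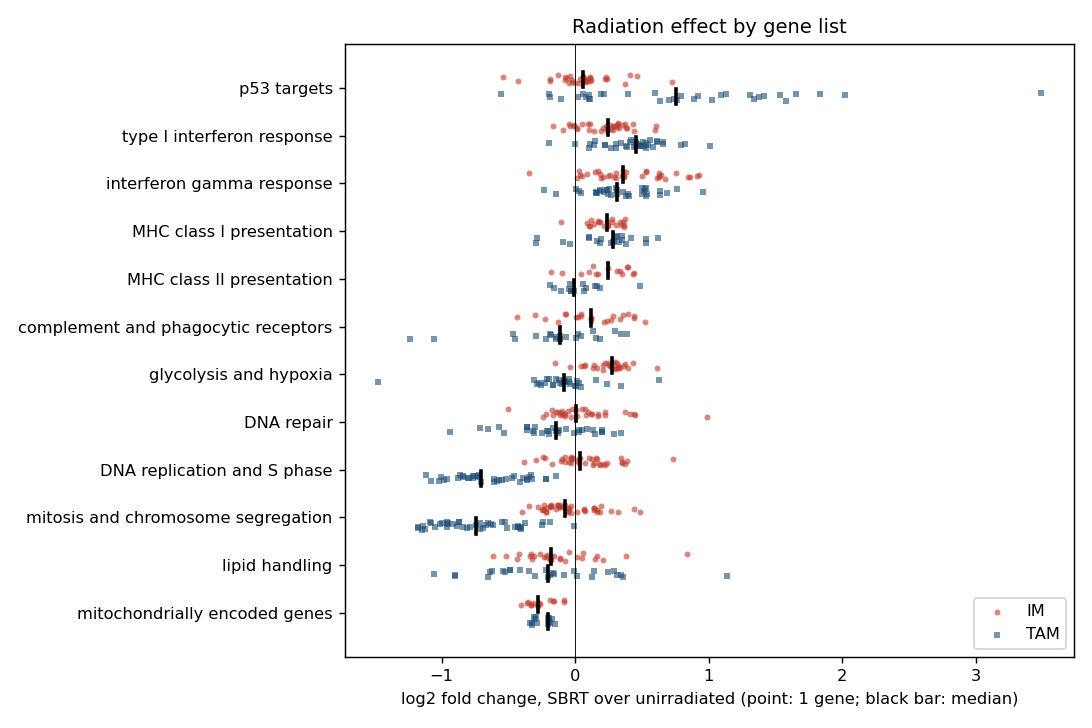
Deposited log2 fold changes of SBRT over unirradiated for the members of 12 gene lists, 1 point per gene, in IM (red circles, upper row of each list) and TAM (blue squares, lower row), with black bars for medians. p53 targets (medians 0.06 in IM and 0.75 in TAM) and the replication and mitosis lists (TAM medians -0.71 and -0.74) separate the populations, and the interferon gamma list (medians 0.36 in IM and 0.32 in TAM) lies at similar values in both.

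The remaining positive differences were genes of several functions. Pmp22, encoding a peripheral myelin membrane protein (chr11:63128982-63159547, plus strand), had the highest. It changed by -0.26 ± 0.21 in IM and -2.35 ± 0.24 in TAM in the authors' deposited tables, a response difference of 2.09 ± 0.32 (interval 1.46 to 2.72, adjusted p = 2.9e-07). Lrg1, a secreted glycoprotein of inflammation and vessel growth, changed by -0.17 ± 0.22 in IM and -2.19 ± 0.26 in TAM in the authors' deposited tables, a response difference of 2.02 ± 0.34. Lrg1 had a mean level of 3489 in IM and 272 in TAM, the reverse of Pmp22 with 61.8 in IM and 723 in TAM.

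Adm, encoding the hypoxia-inducible peptide adrenomedullin, had a response difference of 1.52 ± 0.31, and Saa3, an acute-phase protein of macrophages, 1.35 ± 0.31. Marco, a scavenger receptor for bacteria, had 1.29 ± 0.30 and missed the threshold with the shared standard error (adjusted p = 0.091). Adm was the 1 called gene among 29 members of the glycolysis and hypoxia list, whose median difference was 0.32 with 25 positive values. Ldha, encoding lactate dehydrogenase A, had 0.50 ± 0.20 and was not called (adjusted p = 0.60). Marco was the 1 called gene among 23 complement and phagocytic receptor members, with a median of 0.16.

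C4b and C4a encode complement component 4 and are near-identical copies, so reads can be split between them. They were named after their values were seen. Both rose in IM by the authors' deposited tables (C4b by 0.66 ± 0.15 and C4a by 0.60 ± 0.16), and their TAM effects, -0.50 ± 0.19 for C4b and -0.49 ± 0.20 for C4a, were not called. Their response differences were 1.17 ± 0.24 (adjusted p = 0.0021) and 1.09 ± 0.26 (adjusted p = 0.012). Also named after their values were seen, Gpx3, a secreted glutathione peroxidase, had 1.18 ± 0.23 and Selenbp1, a selenium-binding protein, 1.15 ± 0.27.

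The genes that changed in both populations were then read for their response difference. In all, 14 members rose in both and 3 fell in both, by the authors' deposited tables. Their response differences ran from -0.29 to 0.50, with SEs of 0.17 to 0.32, and none was called (lowest adjusted p = 0.9997). The 95% intervals reached from -0.89 to 1.01, so for single genes a difference as large as many of the shared effects is not shown to be absent.

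Sectm1a, a secreted and transmembrane protein, rose in both populations by the authors' deposited tables, by 1.13 ± 0.18 in IM and 0.63 ± 0.19 in TAM, and its response difference was 0.50 ± 0.26 (interval -0.01 to 1.01). Pdcd1lg2, encoding the checkpoint ligand PD-L2, rose by 0.95 ± 0.22 in IM and 0.95 ± 0.23 in TAM in the authors' deposited tables. Upp1, a uridine phosphorylase, rose by 0.84 in IM and 0.77 in TAM, and Hk3, a hexokinase of myeloid cells, by 0.62 in IM and 0.63 in TAM, in the authors' deposited tables. Hk3 shares exonic bases with Unc5a on the other strand.

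Of these 17 genes, 4 stand on the interferon gamma or type I interferon list. Gbp4, a guanylate-binding GTPase, rose by 0.64 ± 0.15 in IM and 0.76 ± 0.19 in TAM in the authors' deposited tables, a response difference of -0.12 (interval -0.59 to 0.36). Socs1, the feedback inhibitor of cytokine signalling whose ISRE is printed above, rose by 0.63 ± 0.15 in IM and 0.63 ± 0.18 in TAM in the authors' deposited tables, with an interval of -0.47 to 0.46 for the difference. Zbp1, a sensor of Z-form nucleic acids, and Dhx58, a regulator of RNA sensing, rose in both as well. The genes that fell in both were Mlxipl, encoding the glucose-responsive factor ChREBP (-0.90 in IM and -1.27 in TAM in the authors' deposited tables), the transporter gene Mfsd6, and Tlr7, the receptor for single-stranded RNA (-0.64 in IM and -0.74 in TAM in the authors' deposited tables).

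**Figure D4:**
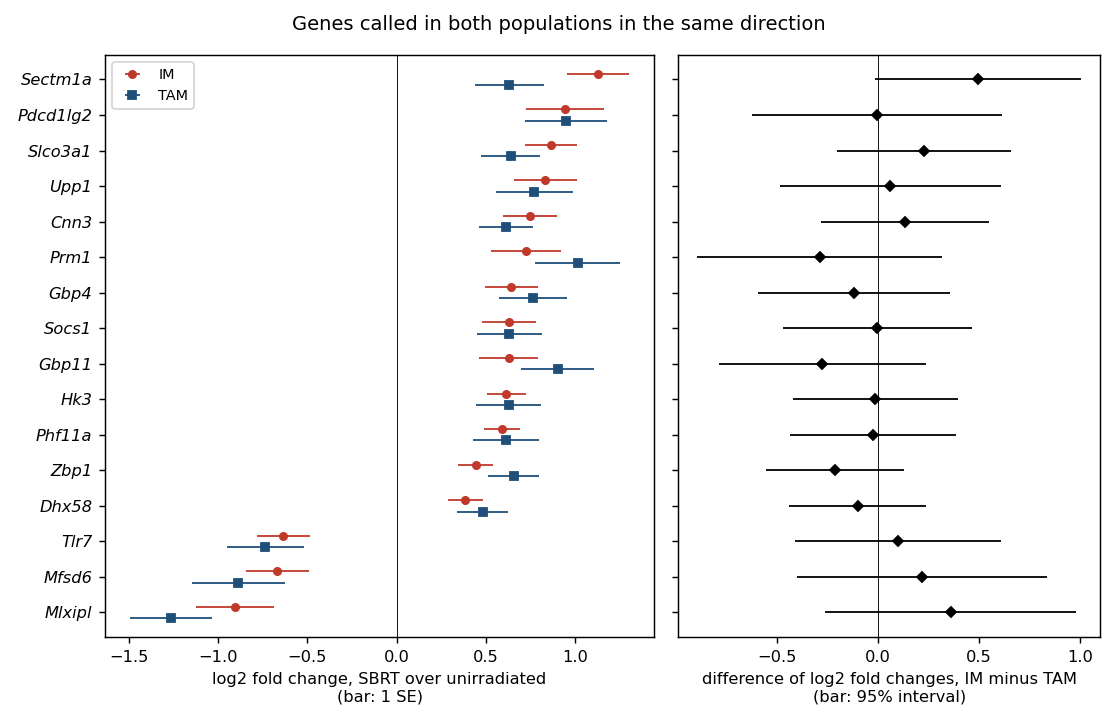
Left, deposited log2 fold changes of SBRT over unirradiated in IM (red circles) and TAM (blue squares) with bars of 1 SE for named genes called in both populations in the same direction; right, the difference (IM minus TAM) with its 95% interval. Every interval shown includes 0, from Sectm1a (0.50) to Prm1 (-0.29).

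The plot of shared genes shows how wide these intervals are. Of the 35 interferon gamma list members, 11 rose in IM (0.518% of all members) and 3 in TAM (1.06%) by the authors' deposited tables. No response difference was called, and the median difference was 0.05, with medians of 0.36 in IM and 0.32 in TAM in the authors' deposited tables. The larger number of calls in IM was not matched by a called difference between the populations. Over all members, 50 genes rose in IM without a call in TAM or in the difference, and 47 of them had a positive TAM effect. Of all 13124 members, 6560 had a positive TAM effect. Leaving out genes with a called difference favours positive TAM effects among the 50, so their number is a description only.

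The highest response differences of this list belonged to Iigp1, Ly6a and Il12rb1. Iigp1, an immunity-related GTPase that attacks pathogen vacuoles, changed by 0.76 ± 0.12 in IM and 0.01 ± 0.17 in TAM in the authors' deposited tables, a response difference of 0.75 ± 0.21 (interval 0.34 to 1.16) that missed the threshold (adjusted p = 0.10). Ly6a, the surface protein Sca-1, had 0.60 ± 0.22 (adjusted p = 0.51), and Il12rb1, the beta 1 chain of the IL-12 receptor, 0.55 ± 0.22 (adjusted p = 0.65). Nos2, encoding inducible nitric oxide synthase, had 0.21 (interval -0.37 to 0.79), and Tgtp1, a T cell specific GTPase, 0.13 (interval -0.28 to 0.54). The lowest value was that of Ido1, a tryptophan-degrading enzyme, at -0.59 ± 0.32 (adjusted p = 1.0). Outside the list, Cd274, encoding PD-L1, had 0.11 (interval -0.35 to 0.57).

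The 37 type I interferon response members had a median difference of -0.20, with 5 positive values and none called. Of the 37, 4 rose in IM and 7 in TAM by the authors' deposited tables, beside 0.518% and 1.06% of all members. Mx1, an antiviral GTPase, had the most negative value of the list, -0.80 ± 0.24 (adjusted p = 0.14), with 0.21 ± 0.15 in IM and 1.01 ± 0.18 in TAM in the authors' deposited tables. MHC class I members had a median difference of 0.02 over 22 genes. MHC class II members had 0.19 over 15 genes, and H2-Ab1, a class II beta chain, had 0.48 ± 0.21 (adjusted p = 0.77). No gene of either list was called.

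Lipid handling, extracellular matrix, lysosome, chemokine, inhibitory ligand, inflammatory macrophage and alternatively activated macrophage genes had no called response difference, with medians between -0.16 and 0.11. The largest in size among matrix genes was Col1a1, the collagen I alpha 1 chain made by fibroblasts, at 1.21 ± 0.34 (adjusted p = 0.10). Rmi2, of the complex that dissolves recombination intermediates, had the highest value of the repair list, 1.13 ± 0.32 (adjusted p = 0.10), and rose in IM by the authors' deposited table (0.99 ± 0.20).

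The lead genes were then read in the other deposited comparisons, which share the unirradiated libraries of each population with the SBRT tables and so are given side by side only. After the combination of SBRT and IL-12, 4 of the 34 genes with a negative response difference rose in IM and 5 fell, by the authors' deposited table, with a median of 0.00. Of all members, 4.89% rose and 3.74% fell there. In TAM 28 rose and none fell, with a median of 1.07, where 2.45% of all members rose and 2.07% fell, by the authors' deposited table. After IL-12 alone, none rose and 5 fell in IM, and 1 rose and 1 fell in TAM, by the authors' deposited tables. Of all members, 2.36% rose and 1.49% fell in IM after IL-12, and 0.892% rose and 0.32% fell in TAM. Phlda3 had 0.71 in IM and 3.31 in TAM after the combination, and 0.12 in IM and -0.24 in TAM after IL-12 alone, in the authors' deposited tables.

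Of the 25 genes with a positive response difference, 8 rose in IM after the combination and 1 fell, by the authors' deposited table, with a median of 0.41, beside the 4.89% and 3.74% of all members. In TAM 13 fell and none rose, with a median of -0.72, beside 2.07% of all members that fell, by the authors' deposited table. The gene that fell in IM was Lrg1, at -1.94 in IM and -1.81 in TAM in the authors' deposited tables. After IL-12 alone Lrg1 had -1.50 in IM and -0.73 in TAM in the authors' deposited tables. Mcm5 had 0.57 in IM and -1.34 in TAM after the combination, in the authors' deposited tables. The replication list as a whole had combination medians of 0.34 in IM and -0.70 in TAM in the authors' deposited tables. Its medians after IL-12 alone, without irradiation, were 0.26 in IM and -0.30 in TAM in the authors' deposited tables. For the mitosis list they were 0.21 in IM and -0.33 in TAM. Of the 25 genes, 5 rose and 1 fell in IM after IL-12, with a median of 0.29, beside 2.36% and 1.49% of all members. In TAM 2 fell and none rose, with a median of -0.36, beside 0.32% and 0.892%, by the authors' deposited tables.

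**Figure D5:**
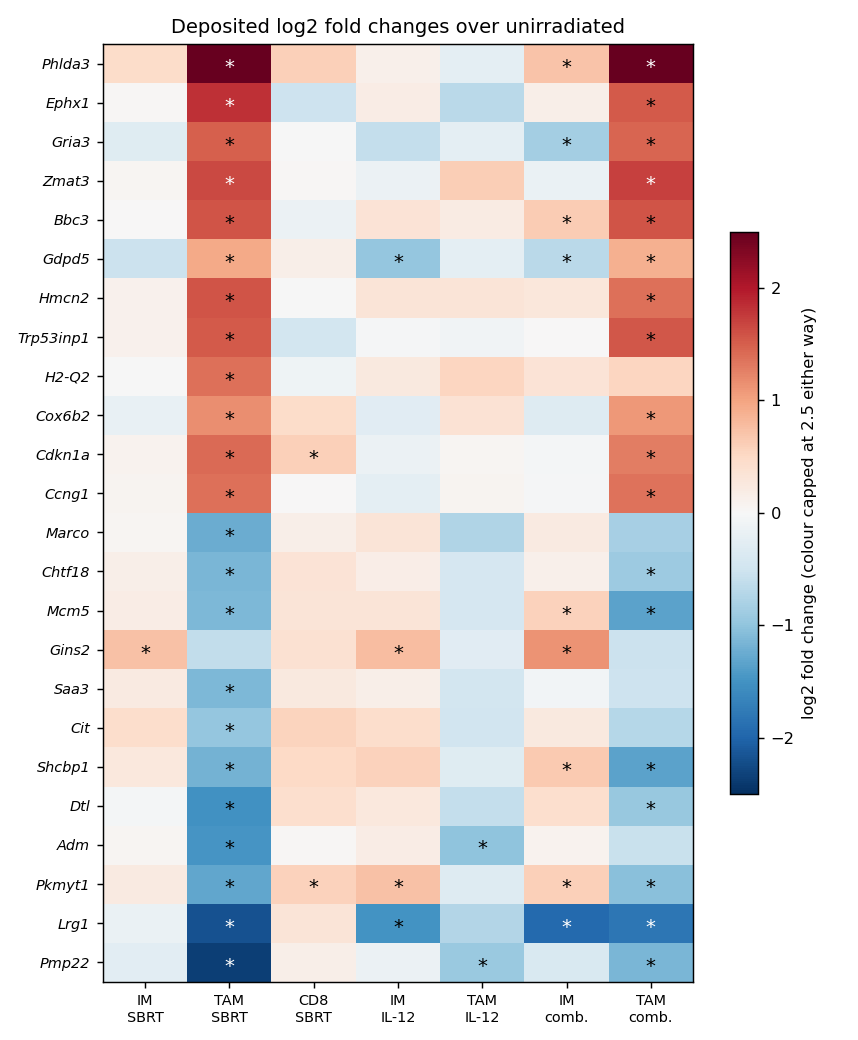
Deposited log2 fold changes over unirradiated (colour, capped at 2.5 either way) for the same 24 named genes in 7 comparisons, with an asterisk where the deposited adjusted p is below 0.05; comb. is SBRT plus IL-12, and CD8 denotes T cells. The TAM columns after SBRT and after the combination are both red for the upper 12 genes and blue for the lower 12, and the IL-12 columns hold few asterisks.

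CD8 T cells were sorted from the same model, with 3 libraries after SBRT and 3 unirradiated libraries of their own. SBRT changed 56 of 12618 members there (0.444%) by the authors' deposited table, of which 42 rose (0.333%). Cdkn1a rose in CD8 cells by 0.59 (adjusted p = 0.032), in the authors' deposited table, and 3 of the 34 p53 targets rose in all, with a list median of 0.03. The replication list had 5 genes that rose and none that fell in CD8 cells, with a median of 0.33 in the authors' deposited table. Pkmyt1 rose there by 0.59 in the authors' deposited table (adjusted p = 0.002). Neither list was tested for a difference between CD8 cells and IM or TAM.

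The labels of both populations were checked against markers. Ly6c2, the Ly6C antigen of the monocyte gate, had a mean level of 49540 in IM and 2391 in TAM. Ccr2, the chemokine receptor of inflammatory monocytes, had 48376 in IM and 13282 in TAM, and Adgre1, which encodes F4/80, had 16461 in IM and 34819 in TAM. The summed level of 14 monocyte markers was 350397 in IM and 86929 in TAM, and that of 16 macrophage markers was 403515 in IM and 1478230 in TAM. These levels are means over all libraries of a population, normalised separately, so they describe rather than test a difference. Among the monocyte markers 2 rose and 3 fell in TAM by the authors' deposited table, among them Plac8 (0.98) and Hp (-0.78), and none had a called response difference. Of all members, 1.06% rose and 1.26% fell in TAM. Among the 16 macrophage markers 1 fell in IM by the authors' deposited table, beside 0.13% of all members. None was called in TAM or had a called response difference. RNA quality was read from 15 genes of the mitochondrial genome, which had medians of -0.28 in IM and -0.21 in TAM in the authors' deposited tables, and the 22 dissociation stress genes had -0.05 in IM and -0.09 in TAM, with none called in either list. None of the 15 mitochondrial genes had a positive effect in IM or in TAM, against 6315 and 6560 of the 13124 members. The cause of this common direction was not tested.

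Relative to TAM, the genes with called differences had lower levels in IM than the members at large. On the log2 scale and centred on all members, the ratio of the IM level to the TAM level had a median of -0.58 for the 34 negative and -1.13 for the 25 positive genes, against a range of -0.71 to 0.51 between the 10th and the 90th percentile of all members. The levels include irradiated libraries, in which the 34 genes had TAM medians of 1.30 after SBRT and 1.07 after the combination. Their ratio is therefore lowered by the response that selected them, and the ratio without irradiation is not known. With the shrinkage of the deposited fold changes undone, 56 of the 59 genes remained called. Genes just below the level minimum (40 to 50, 476 genes) had a median difference of -0.09 and those just above it (50 to 60, 394 genes) one of -0.07.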

How the data were processed

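RNA from sorted cells was sequenced with the TruSeq RNA V2 kit, which does not keep strand, on an Illumina HiSeq instrument, per the labels. The submitters' processing notes name Trimmomatic 0.36, FastQC 0.11.8, STAR 2.6.0c, Subread, featureCounts, Salmon and build GRCm38, with no role or order. Of 9 tables deposited by the authors, 7 were used. Per the file headers they are DESeq2 results. The level is a normalised signal, the mean of scaled counts over a population's libraries, as deposited. The log2 fold change deposited by the authors is treated over unirradiated and was shrunken, as its ratio to the statistic shows. The Wald statistic is a score deposited by the authors, and the p-values and adjusted p-values are also the authors'. The values are per group, so neither the depth of a library nor its value is known, and no library could be checked or left out.

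Each SE was computed as fold change divided by Wald statistic. The response difference was tested with a 2-sided normal test, SE the root of the summed squares, adjusted over 30093 genes, with Python 3.11.15, numpy 2.4.6, scipy 1.17.1 and pandas 2.3.3, after tests on simulated data. If libraries of IM and TAM came from 1 tumour, their covariance is left out. The test is approximate, with 3 against 3 libraries in IM and 2 against 2 in TAM. The robust spread of its statistics was 1.03. Gene positions are from GENCODE vM21, in which 10597 members matched exactly 1 gene name. A gene with several promoter sequences was counted once, if any held the motif.

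The members, the 35 gene lists and the named genes were chosen with earlier results of these data known, and the E2F motif was added later. Named genes were the 12 highest and 12 lowest called differences, up to 4 members per list with the smallest p, genes called in both tables and a fixed set of 18 genes, without predicted genes, pseudogenes and receptor segments. Other named genes are members called by the difference, in both tables or of a list described, and were picked after their values were seen. Alternatives were another standard error, unshrunken fold changes, an empirical null, centring, other level minimums and thresholds.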

Additional observations from a re-analysis of the deposited data

Results flagged for a closer look

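The response to SBRT differed between IM and TAM, by the test of the difference itself, for 59 members. In some of them the IM and TAM effects had opposite signs and each had a deposited p below 0.05 before adjustment. Positive response differences of this kind were those of C4a (1.09), C4b (1.17), Cit (1.40), Espl1 (1.12), Gins2 (1.34), Mov10 (0.96), Pold2 (1.06) and Selenbp1 (1.15). Negative ones were those of Fam102b (-1.004), Gdpd5 (-1.47) and Polk (-1.20). Outside the monocytes and macrophages, SBRT changed 56 members in CD8 T cells by the authors' deposited table. No cause was tested for any of these.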

How the results depend on the processing

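The direction of the response difference of each gene called by the test was the same under every alternative that gave it a value. The 59 calls (25 higher and 34 lower in IM) became 44 with 1 standard error shared by both tables, of which 43 were among the 59, 60 with the shrinkage undone (56 among the 59), 54 with an empirical null, 59 after centring on the median difference, 72 when adjusted over the members, 72 at a level of at least 10 and 52 at a difference of at least 1. At a level of at least 200 there were 39 calls, 15 of them higher in IM. With an adjusted p below 0.01 there were also 39, 13 of them higher in IM, which is 33.3% against 42.4%. An alternative chosen after seeing the data, without genes whose fold change and statistic differ in scale, gave 63. The 85 calls in IM became 43 with an adjusted p below 0.01. The 304 calls in TAM became 155 with an adjusted p below 0.01 and 180 with an empirical null. The stricter thresholds and levels count fewer genes or ask more of each by construction, and the cause of the drop under the empirical null was not tested. No paired analysis was possible because the deposited tables hold no values per library, and for the same reason no library could be left out in turn, so a result that rests on 1 of the 2 TAM libraries of a group would not be seen.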
